A study of Mus musculus with 24 samples.

Results

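The genes described here encode the enzymes, carriers and regulators that oxidise fatty acids in mitochondria and peroxisomes. They numbered 31 of 18649 tested genes and were chosen by function, as spots with one of 31 gene symbols, with the probe of highest mean Cy5 signal taken for each gene. By location of the protein, 16 were counted as mitochondrial, 8 as peroxisomal and 3 as present in both organelles, and 4 served fatty acid supply and regulation. Livers came from C57BL/6JRcc mice, all labelled female, that were housed singly and fed semi-synthetic diets from 3 to 6 weeks of age. Both diets gave 16% of energy as fat, 20% as protein, 32% as starch and 32% as monosaccharide. The monosaccharide was glucose alone in the GLU group (12 mice) and equal parts of glucose and galactose in the GLU+GAL group (12 mice). All mice were food-deprived when killed, in the light phase of postnatal day 42, and RNA of the right liver lobe was hybridised on 1 Agilent array per mouse, with the mouse in Cy5 and a pool of all mice in Cy3.

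Mitochondria shorten most dietary fatty acids by β-oxidation, a cycle of dehydrogenation, hydration, a second dehydrogenation and thiolysis, after the carnitine shuttle has carried the acyl chain across the inner membrane. Peroxisomes run a parallel cycle on very long, branched and dicarboxylic chains with enzymes of their own, and hand the shortened products on. In liver without food the nuclear receptor PPARα is known to drive many genes of both pathways. Values below are log2 ratios of a mouse over the pool unless stated otherwise. Dyes were not swapped, so a gene's distance from 0 holds a dye effect common to all arrays, and only differences between mice are read.

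All 31 genes were measured, each well above background in both channels on all 24 arrays, and none was saturated. The share of spots well above background in Cy5 ran from 46.6% to 51.3% per array, and all 8 hepatocyte markers on a fixed list were measured. Array GLU+GAL 4 stood apart, with a median correlation of its pool channel with other arrays of 0.968 (next lowest 0.990). It had the highest means of skeletal muscle markers (0.86, 4 of 6 listed genes measured) and kidney markers (0.63, 2 of 5 measured). Acta1 and Ckm of the muscle list and Umod, Slc12a1 and Kap of the kidney list were not measured. Against its label as female, array GLU+GAL 12 showed the Y-linked genes Ddx3y and Eif2s3y above background but not Xist. Array GLU+GAL 11 had the highest adipocyte marker mean (0.96, next highest 0.26), over 4 of 5 listed genes, without Adipoq. Probe brightness differs with probe sequence, so levels of mitochondrial and peroxisomal genes cannot be ordered. Mean Cy5 signals ran from 788 to 120240 units for mitochondrial and from 7354 to 71497 units for peroxisomal genes.

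The mitochondrial and the peroxisomal genes were high in the same livers and low in the same livers, on both diets. The per-mouse mean over the 16 mitochondrial genes correlated with the mean over the 8 peroxisomal genes at Pearson r = 0.950 and Spearman rho = 0.874 (n = 24 mice, given as a description). It was 0.964 among GLU mice and 0.933 among GLU+GAL mice, and 0.950, 0.917 and 0.970 within the 3 array slides, each of which held 4 mice of each diet. Without GLU 5 and GLU+GAL 3, the mice farthest from the median, it was 0.923, and without GLU+GAL 4 and 12 it was 0.949. The means share array and normalisation. On other normalisations of these arrays r stayed between 0.918 and 0.949. With the second brightest probe, which only 5 mitochondrial and 2 peroxisomal genes had, it was 0.562. Among these probes, those of Cpt2, Etfdh and Crot were dim, with mean Cy5 signals of 274, 193 and 346 units. The others ran from 1648 to 23330 units.

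**Figure D1:**
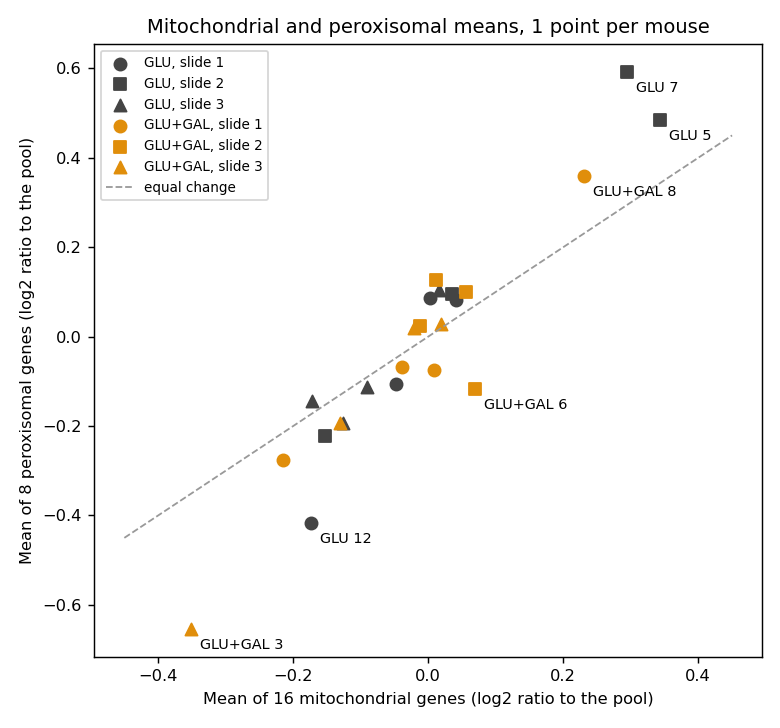
Mean log2 ratio to the pool of the 16 mitochondrial genes (x axis) and the 8 peroxisomal genes (y axis), 1 point per mouse, coloured by diet and shaped by array slide, with a dashed line of equal change. The points of both diets lie along 1 steep band, from GLU+GAL 3 at -0.35 and -0.65 to GLU 5 and GLU 7 at the top right.

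Peroxisomal genes covered the wider range. Their mean ran from -0.65 in GLU+GAL 3 to 0.59 in GLU 7, a 2.37-fold range, against -0.35 to 0.34 for the mitochondrial mean, a 1.62-fold range. The SD over the 24 mice was 0.27 for the peroxisomal and 0.16 for the mitochondrial mean, a ratio of 1.71. With array-median scaling in place of loess the ratio was 1.35. Single genes differed less than the means did, with a median SD of 0.29 for peroxisomal and 0.21 for mitochondrial genes. The SD exceeded 0.17, the median over all tested genes, in 8 of 8 peroxisomal and 9 of 16 mitochondrial genes. Repeated spots, present for 289 other probes, differed by a median SD of 0.06 within an array. Between mice the median SD of those same probes was 0.08.

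Single mice stood out across the whole set. GLU+GAL 3 was the lowest mouse for 24 of the 31 genes and above the median for none of them. GLU 5 was highest for 15 genes and GLU 7 for 12, with mitochondrial means of 0.34 and 0.29 and peroxisomal means of 0.48 and 0.59. GLU+GAL 8 came next, at 0.23 and 0.36. Below the middle, GLU 12 reached -0.17 and -0.42, and GLU+GAL 11 reached -0.22 and -0.27 with 1 gene of 31 above its median. GLU+GAL 6 departed from the shared order, with a mitochondrial mean of 0.07 and a peroxisomal mean of -0.12. Both diets held high and low mice.

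**Figure D2:**
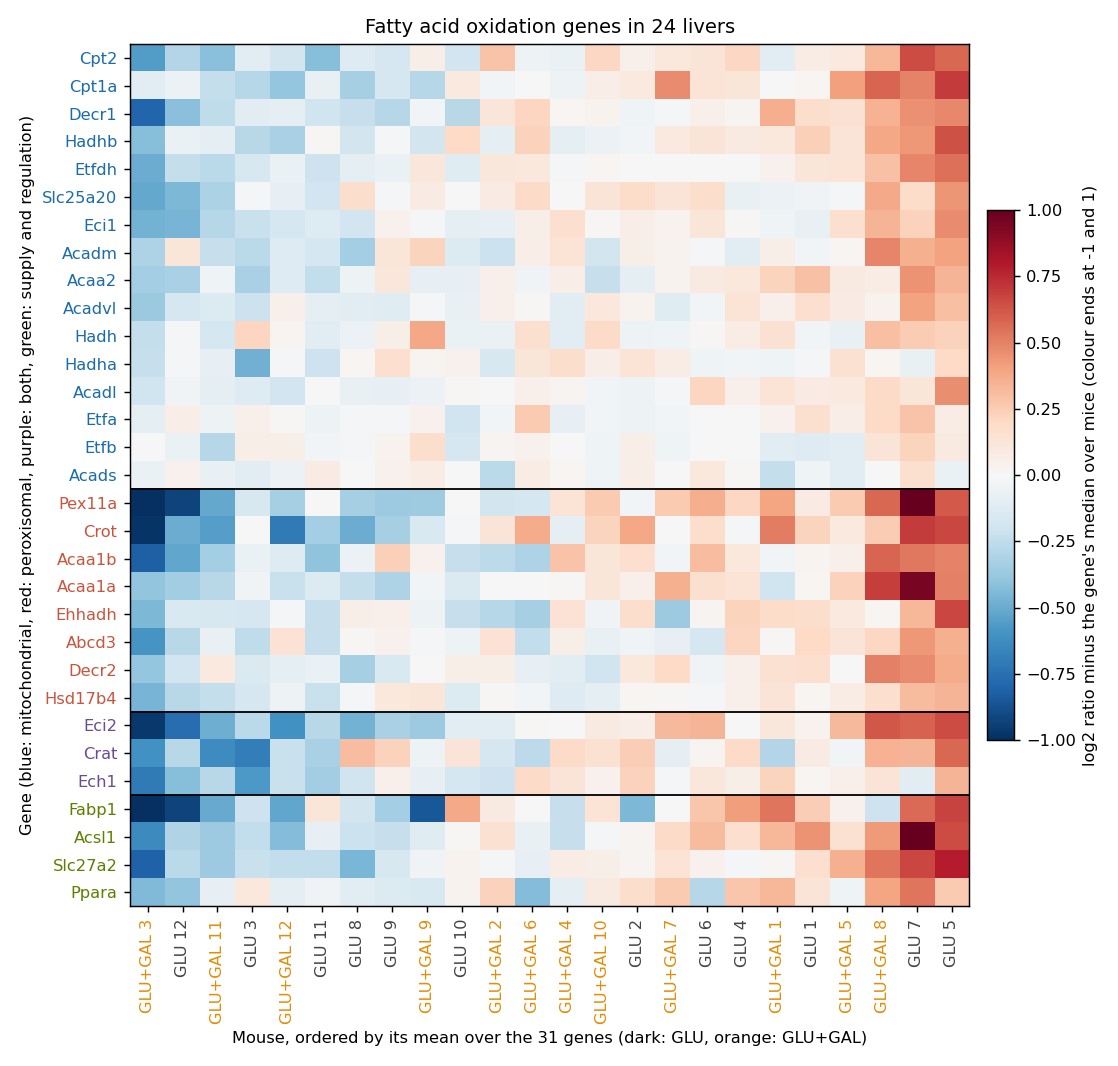
Log2 ratio of each of the 31 genes (rows) in each of the 24 mice (columns), minus the gene's median over mice, with colours ending at -1 and 1. Mice are ordered by their mean over these genes, so the left to right trend is fixed by the ordering; the rows of Acads, Etfa and Etfb are the palest, and orange (GLU+GAL) and dark (GLU) labels mix along the axis.

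Marker genes of other cells were set beside this order. The means of the 8 marker lists checked (hepatocytes, Kupffer, stellate and endothelial cells, cholangiocytes, adipocytes, skeletal muscle and kidney) correlated with the 2 organelle means at r between -0.34 (adipocytes) and 0.21 (endothelial cells), and the hepatocyte list at 0.05 and 0.0038. Measures of array quality correlated at r between -0.20 and 0.04. In whole liver, fewer cells of a type and less RNA per cell cannot be told apart.

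Among the genes that supply and activate fatty acids, Fabp1 encodes the abundant liver protein that binds fatty acids in the cytosol. On the loess ratios it varied most of all 31, over a 4.63-fold range between mice (SD 0.52, larger than in 98.9% of tested genes). In Cy5 alone Fabp1 and Pex11a had similar diet differences (-0.11 and -0.10), with limma's unadjusted p of 0.38 and 0.58. There the spread of Fabp1 within diets was therefore smaller than that of Pex11a. Acsl1, which joins long chains to coenzyme A, covered a 3.45-fold range, and Slc27a2, a very long-chain acyl-CoA synthetase and transporter, a 3.02-fold range. Slc27a2 followed the mean of both organelle groups most closely of these, at r = 0.959, and Acsl1 at 0.904. Ppara, which encodes PPARα, had the narrowest range of the 4, 1.97-fold, and r = 0.692. Ppara correlated with 3 genes chosen as its known targets: with Acaa1b at r = 0.61 (adjusted p = 0.0026), Cpt1a at 0.55 (0.0092) and Ehhadh at 0.50 (0.0189). These p-values come from 2-sided permutation tests over 24 mice, adjusted over 10 pairs. All 3 values of r lay below 0.644, the median over all 465 pairs of the 31 genes. Over the set, Ppara's r ran from -0.21 with Acads to 0.77 with Decr2, so closeness to these 3 genes was not particular to them. By Spearman's rho Ppara and Cpt1a gave 0.59 (0.0062), Ppara and Acaa1b 0.45 (0.0481) and Ppara and Ehhadh 0.43 (0.0506). Without GLU 7 and GLU+GAL 3, r was 0.43 for Acaa1b, 0.48 for Cpt1a and 0.33 for Ehhadh, and within slide 1 Ppara and Ehhadh gave 0.10.

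Promoter windows, the 250 bases before each start site in the RefSeq table for build GRCm38.p6, were searched on both strands for the PPAR response element DR1, a direct repeat of AGGTCA with 1 base between the copies, with up to 2 mismatches. Windows of 27 of the 31 genes were counted (29 windows), and 2 windows held a match (6.9%), against 3.24% of all 32851 windows. Decr1 and Crat had no window, and Acaa2 and Hsd17b4 were left out by their chromosome. The share of all windows was taken without leaving out that chromosome. Matches stood in the windows of Fabp1, the gene with the widest range between mice on the loess ratios, and Etfa, which had one of the narrowest (1.40-fold). The last 100 bases before the start site are shown for both because a match lay before genes of such different spread on those ratios. The match is in capitals (on the printed strand its reverse complement). The match of Fabp1, with 1 mismatch, reads AGGCCATAGGTCA from -67 to -55, and that of Etfa, with 2 mismatches, AGGGCAAAGGTAA from -77 to -65. The 100 printed bases of Fabp1 lie at chr6:71199779-71199878 on the plus strand and those of Etfa at chr9:55512244-55512343 on the minus strand.
Fabp1: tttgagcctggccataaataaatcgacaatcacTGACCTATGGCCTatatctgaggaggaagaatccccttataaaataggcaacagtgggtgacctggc
Etfa: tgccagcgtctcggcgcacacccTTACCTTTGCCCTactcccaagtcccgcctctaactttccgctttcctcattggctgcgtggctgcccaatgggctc
A match is a resemblance of letters in this window only.

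The carnitine shuttle brings acyl chains to the matrix. Cpt1a, the outer membrane transferase that commits long chains to mitochondria, ranged 2.13-fold over mice, Cpt2, its inner membrane partner, 2.32-fold, and the exchanger Slc25a20 1.94-fold. Cpt1a and Cpt2 correlated at r = 0.71 (permutation test, adjusted p = 6.67e-04) and at 0.65, 0.84 and 0.46 within slides. Against the peroxisomal mean, Cpt2 stood at r = 0.905, Slc25a20 at 0.787 and Cpt1a at 0.742. Crot, which makes carnitine esters of the medium chains that peroxisomes release, ranged 3.21-fold. Crat, which transfers short chains in both organelles, ranged 2.41-fold. The second probe of Crot correlated with the first at 0.18, and that of Crat at 0.49, whereas 9 of the 11 genes with a second probe exceeded 0.60. Both of these second probes were dim. That of Crot had a mean Cy5 signal of 346 units, and that of Crat was the dimmest of the 11. The second probes of Cpt2 and Etfdh, at 274 and 193 units, were dim too but exceeded 0.60.

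Within the mitochondrial cycle the acyl-CoA dehydrogenases take chains of different length. The very long-chain enzyme Acadvl followed the peroxisomal mean at r = 0.854 and the long-chain enzyme Acadl at 0.770. The medium-chain enzyme Acadm followed it at 0.698, and the short-chain enzyme Acads at 0.12. Acads was also the steadiest of the 31 genes, with a 1.34-fold range and an SD of 0.10, and 6.18% of tested genes had a smaller SD. Hadhb, which encodes the thiolase subunit of the trifunctional protein for long chains, followed at 0.813, while Hadha, its hydratase and dehydrogenase subunit, followed at 0.37. Hadh, the dehydrogenase for shorter chains, stood at 0.579 and Acaa2, the matrix thiolase, at 0.813. Eci1 and Decr1, which handle double bonds of unsaturated chains, stood at 0.894 and 0.907. Of the electron transfer chain, Etfdh reached 0.929, the highest of the mitochondrial genes, but the flavoprotein subunits Etfa and Etfb reached 0.521 and 0.42, with ranges of 1.40-fold and 1.42-fold. Etfa and Etfb correlated with each other at r = 0.47 (permutation test, adjusted p = 0.0262, and rho = 0.38, adjusted p = 0.082), and Etfa with Etfdh at r = 0.63 (adjusted p = 0.0026). Both values of r lay below 0.644, the median over all 465 pairs of the set. Without GLU 7 and GLU+GAL 6 they were 0.31 and 0.56, and within slide 3 Etfa and Etfb gave 0.87 and Etfa and Etfdh 0.29.

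In all, 13 of 16 mitochondrial genes correlated above 0.5 with the peroxisomal mean, against 6.48% of tested genes outside the set, and the exceptions were Acads, Hadha and Etfb. This depended on the scaling. With array-median scaling in place of loess all 16 exceeded 0.5, with Acads at 0.55, Hadha at 0.68 and Etfb at 0.56. With Cy5 alone Acads stood at -0.08. Leaving out single arrays gave 11 to 13 genes above 0.5.

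**Figure D3:**
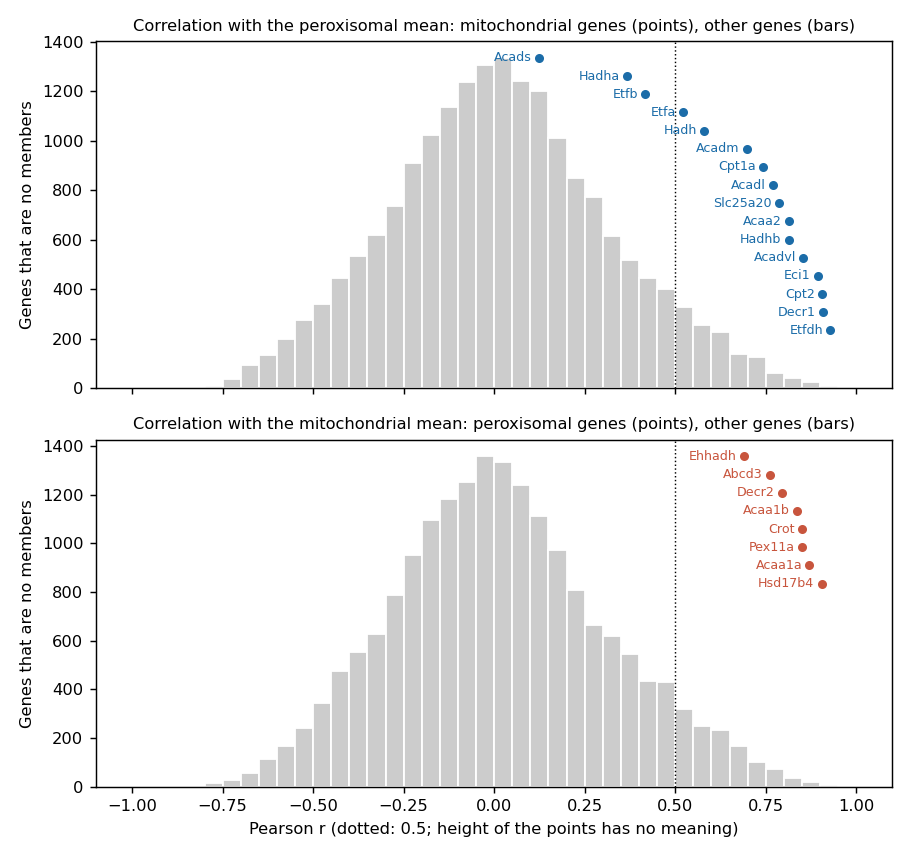
Pearson correlation over 24 mice with the mean of the other organelle's genes (x axis), for 16 mitochondrial genes (upper panel, points) and 8 peroxisomal genes (lower panel, points), above bars that count the 18618 tested genes outside the set. All 8 peroxisomal genes lie right of the dotted line at 0.5, and of the mitochondrial genes Acads, Hadha and Etfb lie left of it.

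Hadha and Hadhb lie head to head on chromosome 5 of GRCm38.p6, with 272 bases between their start sites at 30154980 and 30155253. The sequence between them is shown because it lies before the start sites of both subunits of 1 protein, with the GC box GGGCGG in capitals, as the 250 bases at chr5:30155003-30155252 on the plus strand.
Hadhb: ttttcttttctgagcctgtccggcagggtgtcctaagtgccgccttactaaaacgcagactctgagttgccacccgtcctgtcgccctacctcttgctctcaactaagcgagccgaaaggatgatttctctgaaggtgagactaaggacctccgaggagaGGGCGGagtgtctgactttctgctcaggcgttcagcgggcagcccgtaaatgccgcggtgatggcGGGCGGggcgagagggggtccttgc
It holds 2 such boxes, which were found on either strand in 18 of 29 windows of the set (62.1%) and in 32.7% of all windows. The measured values of Hadha and Hadhb correlated at r = 0.44 (permutation test, adjusted p = 0.0377), rho = 0.31 (adjusted p = 0.142), and at 0.21 without GLU 3 and GLU+GAL 3. Their r of 0.44 lay below 0.644, the median over all 465 pairs of the set. Hadha had 1 probe, with a mean Cy5 signal of 864 units, and Hadhb 3 probes, of which the 2 brightest correlated at 0.94.

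All 8 peroxisomal genes correlated above 0.5 with the mitochondrial mean, where 6.45% of genes outside the set did. Abcd3, a transporter of the peroxisomal membrane, stood at r = 0.762. Of the enzymes with hydratase and dehydrogenase activity, Hsd17b4 stood at 0.904, the highest of the 8, and Ehhadh at 0.689, the lowest. The pair correlated at r = 0.73 (permutation test, adjusted p = 3.5e-04). Cpt1a with Ehhadh, the tested pair that crossed the organelles, was weaker. It gave r = 0.42 (permutation test, adjusted p = 0.0409) and rho = 0.36 (adjusted p = 0.0987). Without GLU 5 and GLU+GAL 8 its r was 0.20, and within slides it was 0.35, 0.80 and -0.28. Ehhadh followed the mitochondrial mean at 0.900 on GLU and at 0.435 on GLU+GAL, a difference that was not tested. The thiolases Acaa1a and Acaa1b stood at 0.871 and 0.837 and correlated at r = 0.75 with each other (adjusted p = 2e-04). They are close copies that lie 183934 bases apart on chromosome 9, and cross-hybridisation between their probes was not tested. Decr2, a reductase for unsaturated chains, stood at 0.795. Pex11a, which promotes division of peroxisomes, stood at 0.851 and had the widest range of the 8, 4.44-fold.

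Of the genes found in both organelles, Eci2, an isomerase for unsaturated chains, followed the mean of both groups at r = 0.929 over a 3.07-fold range, Ech1, another isomerase, at 0.748 and Crat at 0.735. The closest pair of all 465 was Eci2 with Pex11a (r = 0.935), followed by Etfdh with Slc27a2 (0.929) and Etfdh with Hsd17b4 (0.927). Pairs that crossed the organelles had a median r of 0.662 (128 pairs), pairs of mitochondrial genes 0.565 (120 pairs) and pairs of peroxisomal genes 0.726 (28 pairs). Only 7 of the 465 pairs fell below 0, the lowest being Ppara with Acads (-0.21).

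Between diets, none of the 31 genes differed beyond the spread between mice. No gene of 18649 passed limma's adjusted threshold of 0.05 (0% of tested genes, lowest adjusted p = 0.523), and 803 genes (4.31%) had an unadjusted p under 0.05, none of them among the 31. The absence of the 31 from that count depended on the setting: 1 to 3 of them were under it in 7 of 19 other settings and in 10 of 24 that left out 1 array, always from Ehhadh, Crat, Fabp1, Acads and Acsl1, with adjusted p from 0.564 upward. The diets overlapped for each of the 31, as for every tested gene. The mean was lower in GLU+GAL livers for 27 of the 31 genes, where 49.2% of all tested genes were lower: 13 of 16 mitochondrial, 8 of 8 peroxisomal, 2 of 3 genes of both organelles and 4 of 4 supply and regulation genes. The median difference was -0.03 for mitochondrial and -0.08 for peroxisomal genes, against 0.0013 over all genes. The genes covary, so their directions are not separate observations.

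This direction was not stable. With array-median scaling 12 of 31 genes were lower in GLU+GAL livers (51.4% of all genes), with Agilent's processed signals 16 were (32.7%), and 11 (44.2%) were lower in the authors' deposited table. Within slide 1 the count was 11 of 31, within slide 2 it was 28 and within slide 3 it was 23. Single mice decided it too: without GLU 5 the count was 17, without GLU 7 it was 18 and without GLU+GAL 3 it was 17. Without GLU+GAL 4, 11 and 12, a choice made after seeing the data, it was 15, and without GLU+GAL 4 and 12 it was 24.

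**Figure D4:**
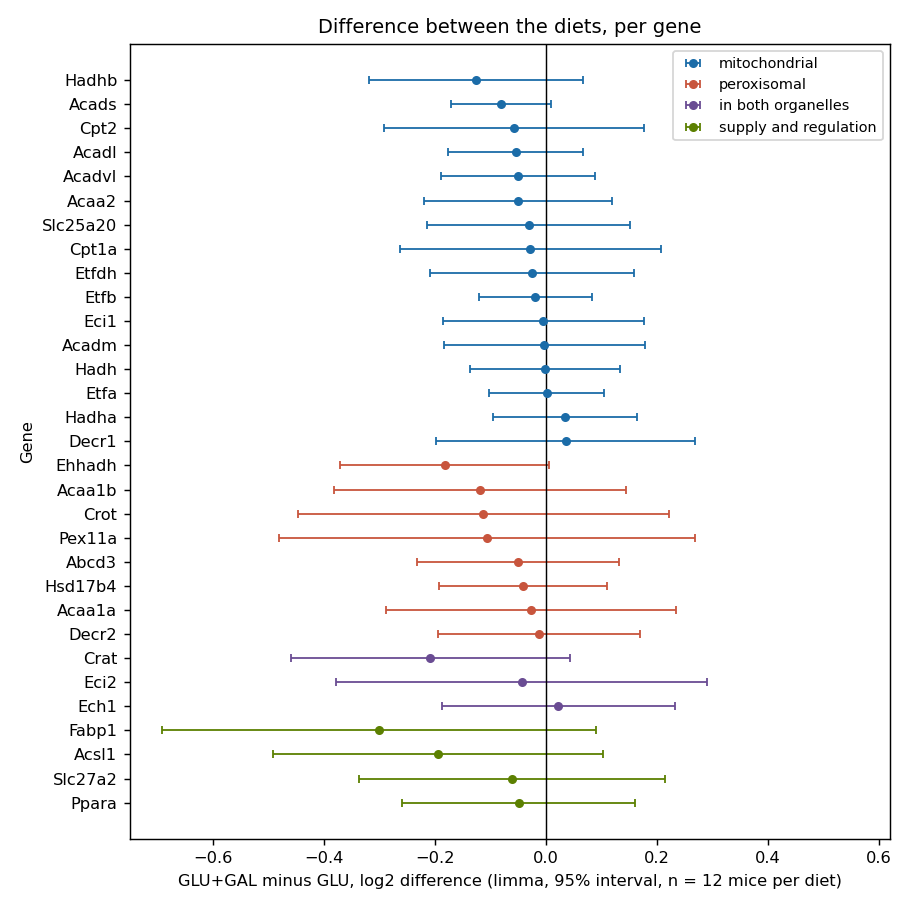
Difference GLU+GAL minus GLU in log2 units for each of the 31 genes (points) with the 95% interval from limma (whiskers, n = 12 mice per diet), coloured by place in the pathway. All 31 intervals include 0; that of Ehhadh ends nearest to 0, at 0.0059.

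Ehhadh, the peroxisomal bifunctional enzyme, had the smallest p of the set. GLU livers ran from 0.08 through a median of 0.37 to 0.98, and GLU+GAL livers from -0.14 through 0.27 to 0.49. The groups overlapped, although the GLU mean exceeded 9 of 12 GLU+GAL mice. Its difference was -0.18 ± 0.09 (SE, 95% interval -0.37 to 0.0059, limma's unadjusted p = 0.057 and adjusted p = 0.999), and it was -0.15, -0.26 and -0.15 within slides. Its unadjusted p was under 0.05 in 5 of the 19 and 7 of the 24 settings. The difference was negative in all alternatives run, between -0.26 and -0.13.

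Fabp1 had the largest difference and a wide spread. GLU livers ran from -0.93 through 0.18 to 0.67, and GLU+GAL livers from -1.54 through -0.11 to 0.53. Its difference was -0.30 ± 0.19 (unadjusted p = 0.125), and it was -0.67 within slide 3, -0.0070 within slide 1 and -0.22 within slide 2. Without GLU+GAL 3 it was -0.19, with Agilent's processed signals -0.16 and in Cy5 alone -0.11. Crat, the short-chain carnitine transferase, ran from -0.41 through 0.44 to 0.86 in GLU livers. In GLU+GAL livers it ran from -0.35 through 0.15 to 0.63, with a difference of -0.21 ± 0.12 (p = 0.10). Its second probe gave a difference of 0.0021. That probe was the dimmest of the 11 second probes, so its value cannot decide whether the first probe's difference holds. Acsl1 ran from -0.60 through -0.28 to 0.85 in GLU livers and from -0.94 through -0.35 to 0.12 in GLU+GAL livers, with a difference of -0.19 ± 0.14 (p = 0.191). For Acsl1 it was 0.07 within slide 1 and -0.45 within slide 2, where GLU 5 and GLU 7 lie. The second probe of Acsl1 gave -0.30 (limma, unadjusted p = 0.00876, adjusted p = 0.9995), and without GLU 7 the first gave -0.10. The diets overlapped for Fabp1, Crat and Acsl1.

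The steady gene Acads ran from 0.08 through 0.22 to 0.35 on GLU and from -0.07 through 0.14 to 0.27 on GLU+GAL. Its difference of -0.08 ± 0.04 (p = 0.077) was the smallest p among mitochondrial genes, and it was 0.0011 within slide 3. Hadhb differed by -0.13 ± 0.09, Acaa1b by -0.12 ± 0.13, Crot by -0.11 ± 0.16 and Pex11a by -0.11 ± 0.18. The remaining 22 genes, Ppara and the carnitine transferase Cpt1a among them, lay between -0.06 and 0.04. The intervals over all 31 genes ran from -0.69 to 0.29. Hadhb, Acaa1b, Fabp1 and Ehhadh were the 4 genes whose sign stayed negative in every alternative run.

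The per-mouse mitochondrial mean stood at -0.0026 ± 0.17 in GLU livers and at -0.03 ± 0.15 in GLU+GAL livers (SD, n = 12 each), and its difference of -0.03 was 0.04, -0.10 and -0.03 within slides. The peroxisomal mean stood at 0.02 ± 0.29 in GLU livers and -0.06 ± 0.25 in GLU+GAL livers, and its difference of -0.08 was 0.07, -0.20 and -0.11 within slides. The peroxisomal mean minus the mitochondrial mean was 0.02 ± 0.13 and -0.03 ± 0.12, so the diets differed by -0.05 in it. These differences were smaller than 1 SD between mice. For the mitochondrial mean the sign turned with Agilent's processed signals (0.02), array-median scaling (0.02) and the authors' deposited table (0.04), and without GLU 5 (0.0026), GLU+GAL 3 (3.17e-04) or GLU+GAL 4, 11 and 12 together (0.0016), and without GLU 7 it was -0.0018. For the peroxisomal mean the same scalings gave -0.04, -0.02 and -0.0085, and leaving out GLU 5, GLU 7 or GLU+GAL 3 gave -0.04, -0.03 and -0.03. The gap between the means was -0.03 without GLU 7 and without GLU+GAL 3. Markers of Kupffer cells (a difference of -0.24 in their mean, 5 of 10 at an unadjusted p under 0.05) and of hepatocytes (-0.12, 4 of 8) were also lower in GLU+GAL livers, and their part in these values was not tested.

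**Figure D5:**
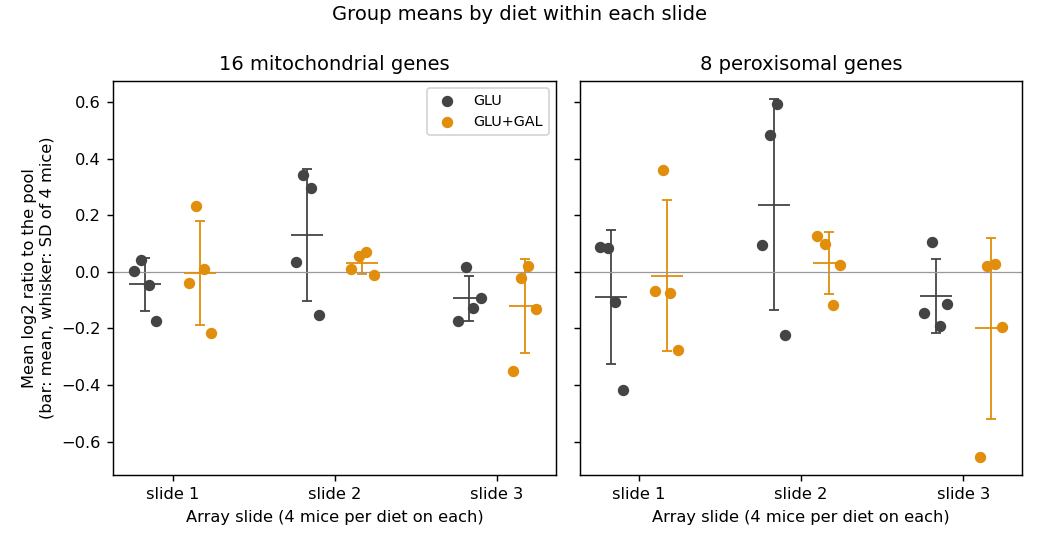
Per-mouse means of the mitochondrial (left) and peroxisomal genes (right) in log2 ratio to the pool, by array slide and diet, with 4 mice per diet on each slide (points), their mean (bar) and SD (whisker). The peroxisomal mean of GLU+GAL mice lies above that of GLU mice on slide 1 by 0.07 and below it on slides 2 and 3 by a difference of -0.20 and -0.11, and GLU 5 and GLU 7 are the top points of slide 2.

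Further genes of these pathways came from a list of 74, of which 72 were measured. Of these 36 had a lower and 36 a higher mean in GLU+GAL livers, none passed limma's adjusted threshold, and 3 (4.17%) had an unadjusted p under 0.05, a share near the 4.31% of all tested genes. They were Hacl1, a lyase of peroxisomal α-oxidation (-0.29 ± 0.09, p = 0.0042), Plin2, a lipid droplet coat protein (-0.34 ± 0.15, p = 0.0344), and Acad9, a mitochondrial dehydrogenase and assembly factor (0.13 ± 0.05, p = 0.0213). The second probe of Acad9 gave 0.03 (p = 0.709) and that of Plin2 -0.20 (p = 0.113), while Hacl1 gave -0.22 (p = 0.0272) there and -0.05 within slide 1. For Hacl1, 11 of 12 GLU+GAL mice were under the mean of the GLU mice. The fasting hormone gene Fgf21 differed by -0.59 ± 0.32, with -0.41, -0.09 and -1.26 within slides.

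Of the 72 genes, 29 correlated above 0.5 with the mitochondrial and 32 with the peroxisomal mean. Not all genes named as PPARα targets followed. Against the peroxisomal mean, Cyp4a10 stood at r = 0.874, Cyp4a14 at 0.756, both fatty acid hydroxylases, and Angptl4, a lipase inhibitor, at 0.758, but Pdk4, which restrains glucose oxidation, stood at 0.07 despite a 6.77-fold range between mice. Ppargc1a, a coactivator of oxidative genes, stood at -0.47. Of 15 peroxins, which build peroxisomes, 8 exceeded 0.5, with a median of 0.505. Lowest of the list was Acsl3, another acyl-CoA synthetase, at -0.56, and the enzymes that make malonyl-CoA, an inhibitor of Cpt1a, stood at -0.34 (Acaca) and -0.35 (Acacb).

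Among all genes outside the set, those most like the mitochondrial mean over the 24 mice included Cyp4a31 (r = 0.937), Cyp4a10 (0.926), Abcb4, a phospholipid transporter of bile (0.920), Hsdl2 (0.915) and Ephx2, an epoxide hydrolase (0.913). Those most like the peroxisomal mean included Hsdl2 (0.951), Abcb4 (0.919), Eci3, a peroxisomal isomerase (0.914), Slc22a5, the carnitine transporter of the plasma membrane (0.909), and Lonp2, a peroxisomal protease (0.908). Hsdl2 and Abcb4 stood on both lists. Between diets Hsdl2 differed by -0.04 ± 0.13 and Abcb4 by -0.0083 ± 0.11 (SE, limma).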

How the data were processed

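Per the file headers and the submitters' processing notes, the deposited scanner files hold spot intensity values in Cy5 and Cy3 from Agilent Feature Extraction 10.7.3.1. They give the mean signal and local background of each spot, besides signals already corrected by that software. A series table that the authors deposited holds log2 values for 29287 spots in 24 columns, each of which matched its own array's Cy5 channel best (r from 0.993 to 0.999). Its scaling is not stated in the labels or headers, and it served as an alternative. No 2 arrays were identical.

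Signals were corrected by normexp (offset 50), log2 ratios were normalised by loess within each array with control spots at weight 0, and controls and outlier spots were then left out, with limma 3.58.1 (R 4.3.3; files were read by the data.table package, version 1.17.8). Probes well above background in Cy5 on at least 6 arrays of 1 diet were kept (26675), the brightest per gene name, giving 18649 genes. Diets were compared with lmFit and eBayes over 24 arrays, 2-sided, with Benjamini-Hochberg adjustment over these genes and a threshold of 0.05. Single pairs were tested by permutation (100000 resamples). The fit was tested on simulated data. Promoters were read with Biopython 1.88, and plots drawn with matplotlib 3.10.9. All 31 members matched the RefSeq table.

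The members, the lists and the alternatives were chosen with earlier results of these data known, so counts over members carry no p. Genes outside the set were named by rule: 9 chosen genes of the pathway list, any gene of that list at an unadjusted p under 0.05, and the 6 genes most like each organelle mean. Some genes that the rule named are not reported here. Acsl3, Acaca and Acacb were named after their values were seen. The number of arrays limits the precision.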

Additional observations from a re-analysis of the deposited data

How the results depend on the processing

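No gene of the set was called between diets in any of the alternatives run, which covered background, normalisation, filter, probe, block, slide and left-out arrays. The count of genes with a lower mean in GLU+GAL livers, 27 of 31, was 16 with Agilent's processed signals, 12 with array-median scaling, 11 in the authors' deposited table, 7 of 11 with the second brightest probe, 11 within slide 1 and 15 without GLU+GAL 4, 11 and 12, the last chosen after seeing the data. Leaving out 1 array gave 17 (without GLU 5 or GLU+GAL 3) to 29, and 18 without GLU 7; the cause was not tested. Over the same left-out arrays 0 to 1 gene of all 18649 was called, the 1 without GLU 3. The correlation of the organelle means was 0.562 with the second brightest probe, which left 7 genes, and 0.936 to 0.968 over left-out arrays. The count of all genes at an unadjusted p under 0.05, 803, was 379 with array-median scaling, 1211 with array weights, 1242 without the filter on dim probes, 1270 and 1632 within slides 1 and 2, and 212 with second probes. With Slc27a2, Ech1 and Eci2 added to the peroxisomal genes, the correlation of the organelle means was 0.961.

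Replicate numbers are shared between diets, and the labels do not say whether they pair the mice. Deviations of same-numbered mice correlated between -0.38 and 0.52, over 0.1 in 8 of 12 pairs, and 2 pairs were best with their own number. These values do not settle whether the mice were paired. With the replicate block, limma called 0 genes, with a lowest adjusted p of 0.111, against 0.523 without it. In that fit limma's unadjusted p was 0.0062 for Crat, 0.0293 for Ehhadh and 0.0364 for Fabp1. No gene of the set was saturated, so leaving out saturated ones gave no value.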
